A study of Mus musculus with 6 samples.

Results

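A set of 9 genes of the epithelial keratin cytoskeleton was followed in sorted mouse lung cells: Trp63, which encodes the transcription factor p63, the basal keratins Krt5, Krt14, Krt15 and Krt17, and the simple-epithelium keratins Krt7, Krt8, Krt18 and Krt19. They were taken by symbol, and all 9 were among the 48577 gene rows of each count file. The tdTomato-positive and tdTomato-negative fractions were sorted from lungs of Miwi2tdTomato mice of the C57BL/6 strain, in which tdTomato reports Piwil4, the gene of the Piwi protein MIWI2. Both fractions lacked CD45, a leukocyte surface marker, and carried EpCAM, an epithelial one. Each of 3 mice gave 1 library of each fraction, so there were 3 tdTomato-positive and 3 tdTomato-negative libraries. The labels describe both fractions as multiciliated cells. All mice carried the reporter, and the labels name no age, injury or treatment. The comparison asks whether p63 and the keratins differ between the 2 fractions.

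Keratins are intermediate filament proteins that assemble as obligate pairs of a type I and a type II chain. Krt8 and Krt7 are type II chains and Krt18 and Krt19 type I chains of single-layered epithelia, and Krt8 with Krt18 is the common pair of such cells. Krt5 (type II) and Krt14 (type I) form the pair of basal cells, the stem cells of the pseudostratified airway, in which p63 is the defining transcription factor. Krt15 and Krt17 are type I chains that are also found in basal cells.

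Counts in genes were 5602309 to 5763317 in the tdTomato-positive and 5330584 to 6326395 in the tdTomato-negative libraries. Values below are CPM, read counts scaled to a common library size with the TMM factors of edgeR. A gene without a read could be at up to 0.475 to 0.507 CPM in the tdTomato-positive and 0.576 to 0.585 CPM in the tdTomato-negative libraries, which is what 3 reads give; such floors speak of counting error alone. Piwil4, the reporter's gene, averaged 103 ± 7.92 CPM in tdTomato-positive and 39.9 ± 8.62 CPM in tdTomato-negative libraries (SD, n = 3 each). The tdTomato-positive library of mouse 1 lay at -66.0 on the first principal component, against -8.54 to 31.8 for the others. Mitochondrial ribosomal RNA held 17.4% to 19.6% of counts in tdTomato-positive and 24.6% to 39.1% in tdTomato-negative libraries, without overlap; its part in the differences was not tested. The labelled identity was checked on 10 multiciliated markers, which summed to 5337 to 5726 CPM in tdTomato-positive and 5546 to 5625 CPM in tdTomato-negative libraries. None was called without a mouse term and 3 were higher with the block. Most of each sum came from Dnah5, Dnah12 and Ccdc39. Markers of club cells summed to more in tdTomato-positive libraries, at 8750 to 21910 CPM. Those of alveolar type 2 cells did so in tdTomato-negative libraries, at 6108 to 7458 CPM. The labelled identity was thus not settled by this check. Fold changes are tdTomato-positive over tdTomato-negative, and a gene was called at an edgeR adjusted p under 0.05 over the 13175 genes that passed a filter on low counts. Since the labels tie both fractions to a mouse, 2 edgeR fits are given. The fit without a mouse term called 82 genes or 0.622%, 6 higher and 76 lower, and with scaling by library size alone the split was 22 higher and 54 lower. The fit with the mouse as a replicate block called 3.15%.

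The 2 keratin programs were far apart in level. In both fractions nearly all keratin reads came from the 4 simple-epithelium genes, while the basal keratins had few reads, and p63 RNA was read in the tdTomato-negative libraries alone. Of all reads in the 55 keratin rows, the 4 simple-epithelium keratins held 96.1% (95.7 to 96.5), 93.3% (92.7 to 94.0) and 96.9% (96.5 to 97.2) in the tdTomato-positive libraries of mice 1, 2 and 3. In the tdTomato-negative libraries they held 94.8% (94.2 to 95.3), 91.7% (90.6 to 92.6) and 95% (94.3 to 95.6); the ranges are exact 95% binomial intervals, for counting error only. The 4 basal keratins held 0.0579% (0.0213 to 0.126), 0.221% (0.114 to 0.385) and 0.1% (0.0501 to 0.180) in the tdTomato-positive libraries. In the tdTomato-negative libraries they held 0.448% (0.303 to 0.639), 1.12% (0.770 to 1.57) and 0.371% (0.220 to 0.585). The groups did not overlap for the basal keratins, with the 2 nearest libraries, tdTomato-positive mouse 2 and tdTomato-negative mouse 3, within each other's counting intervals, and they did overlap for the simple ones.

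**Figure D1:**
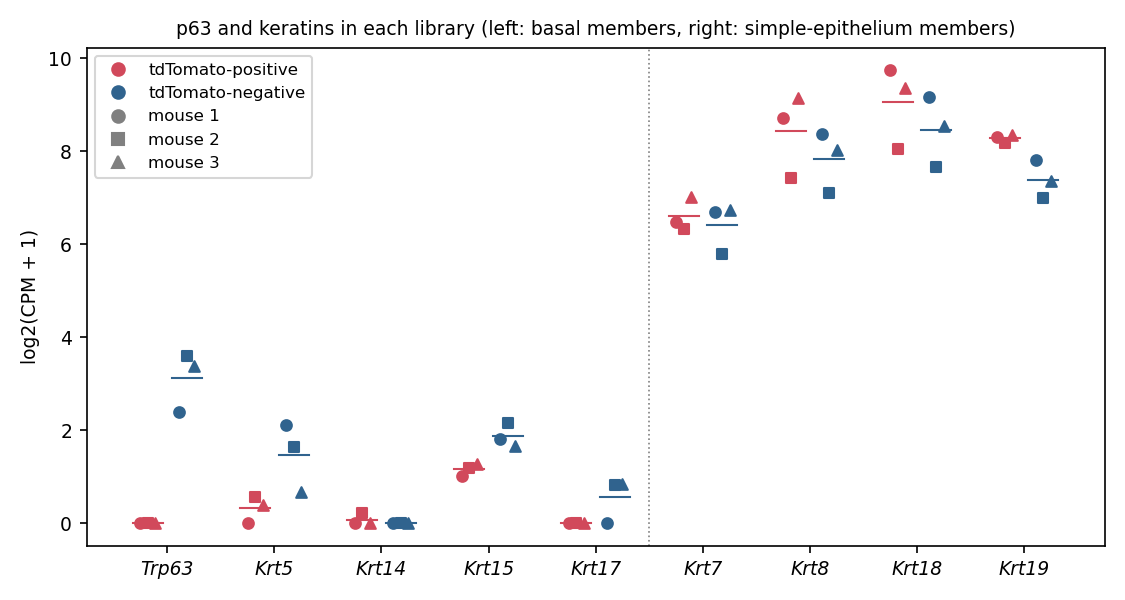
Level of each of the 9 genes in each library, as log2(CPM + 1), with 1 point per library, the shape giving the mouse and the short bar the mean of the 3 log2 values. The basal genes lie below 4 on this scale in every library and the simple-epithelium keratins above 5, and Trp63 is at 0 in the 3 tdTomato-positive libraries.

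Trp63 lies on chromosome 16 (25683763 to 25892102, + strand, GRCm38). It had 0, 0 and 0 reads in the tdTomato-positive libraries of mice 1, 2 and 3, against 22, 58 and 48 reads, or 4.27, 11.1 and 9.36 CPM, in the tdTomato-negative ones. All tdTomato-negative libraries were thus above all tdTomato-positive ones, as for 9.02% of the genes tested. The tdTomato-negative mean of 8.26 CPM was 17-fold above 0.486 CPM, the mean of the floors of the tdTomato-positive libraries at 3 counts each. That is a ratio of means and no bound for each mouse. Mouse 1 lay nearer, at 4.27 CPM against a floor of 0.507 CPM. Trp63 was called lower (adjusted p = 0.00693 in edgeR, and 0.000236 with the mouse as a block). The gene passed the filter through its tdTomato-negative libraries alone, so its direction is given as a description. Of all genes tested, 0.577% were called lower (1.79% with the block). DESeq2 with the block also called Trp63 (adjusted p = 1.52e-06), in a fit that called 1.59% of genes lower. The call was lost without mouse 2 (adjusted p = 0.138) and without mouse 3 (adjusted p = 0.111, and 0.0673 with the block). The sums of 10 alveolar type 2 markers also differed without overlap, at 552.1 to 1065 CPM in tdTomato-positive and 6108 to 7458 CPM in tdTomato-negative libraries, with all 10 tested, 6 lower and 4 not called. Those of 8 mesenchymal markers were 3.97 to 39.35 CPM in tdTomato-positive and 23.79 to 76.83 CPM in tdTomato-negative libraries, and those of 8 leukocyte markers 7.464 to 35.12 CPM in tdTomato-positive and 8.385 to 89.7 CPM in tdTomato-negative libraries; none of either list was called without a mouse term. With the block 8 of the type 2 markers fell, as did the leukocyte marker Ptprc, the gene of CD45 (log2 fold change -2.37, adjusted p = 0.00502 in edgeR, and 0.410 without). Their part in the Trp63 difference was not tested. Gene counts do not separate the TA and ΔN isoforms of p63. In bulk libraries such as these, fewer cells of a type and less RNA per cell cannot be told apart.

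The basal keratins were few in reads. Krt5 (chromosome 15, 101707070 to 101712898, - strand) had 0, 3 and 2 reads in the tdTomato-positive libraries of mice 1, 2 and 3, against 17, 11 and 3 in the tdTomato-negative ones. That is 0, 0.475 and 0.318 CPM against 3.30, 2.11 and 0.585 CPM, without overlap, though the tdTomato-positive values and the last tdTomato-negative one lie at or under the floor. The filter dropped Krt5; with no filter it was not called (edgeR log2 fold change -2.79, adjusted p = 0.330; DESeq2 -2.89, adjusted p = 0.399).

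Its partner Krt14 (chromosome 11, 100203162 to 100207548, - strand) had 1 read in all, in the tdTomato-positive library of mouse 2. Krt17 (chromosome 11, 100256217 to 100261029, - strand) had 0 reads in every tdTomato-positive library and 0, 4 and 4 in the tdTomato-negative ones. For these genes no difference was detectable at this depth, and both fell below the filter.

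Krt15 (chromosome 11, 100131758 to 100135928, - strand) was the basal keratin with the most reads. It stood at 1.01, 1.27 and 1.43 CPM in the tdTomato-positive libraries of mice 1, 2 and 3, against 2.52, 3.46 and 2.14 CPM in the tdTomato-negative ones. It was lower in 3 of 3 mice, and the groups did not overlap, as for 9.02% of the genes tested, which had lower CPM in all tdTomato-positive libraries. Like Trp63, it passed the filter through its tdTomato-negative libraries alone, so its direction is given as a description. Its log2 fold change of -1.12 ± 0.594 (SE) did not pass (adjusted p = 0.542 in edgeR, and 0.485 with the block). Of the 5 basal members, 1 was thus called, 1 was tested and not called, and 3 were too low to test. A list of 10 basal cell markers, which holds these 5, summed to 1.182 to 2.215 CPM in tdTomato-positive and 11.06 to 19.78 CPM in tdTomato-negative libraries, with 2 of 10 tested. The 5 members alone summed to 1.013 to 1.899 CPM in tdTomato-positive and 10.09 to 17.48 CPM in tdTomato-negative libraries. The sum of the list is thus mostly that of the members and adds little to them. Per mouse, Trp63 and Krt5 did not follow each other in the tdTomato-negative libraries: mouse 1 had the fewest Trp63 and the most Krt5 reads.

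Where a keratin has close copies, reads that fit both places equally go to a summary row of HTSeq and not to either gene. Of all 50-base windows in their annotated transcripts, 12.2% for Krt5, 13.9% for Krt14, 29.7% for Krt8 and 3.99% for Krt17 occur in a transcript of another gene. The share was 0.916% or less for Krt7, Krt15, Krt18, Krt19 and Trp63, with 0% for the last 2. The longest identical coding run of Krt14 and its skin paralog Krt16 shows what such reads would hold; both genes carry every base of it, so no base is in capitals. It spans 134 bases, at coding positions 306 to 439 of Krt14 (GENCODE M21 transcripts, GRCm38).
Krt14 and Krt16: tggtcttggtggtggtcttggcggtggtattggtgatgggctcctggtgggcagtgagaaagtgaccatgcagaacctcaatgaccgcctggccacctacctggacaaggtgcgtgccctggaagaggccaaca
The copies had few reads. Krt16 had none in any library. Of the paralogs of Krt5, Krt6a had 1, 1 and 0 reads in tdTomato-positive and 1, 0 and 0 in tdTomato-negative libraries. Krt6b had 9, 0 and 0 reads in tdTomato-positive and 3, 0 and 0 in tdTomato-negative libraries, so in the tdTomato-positive library of mouse 1 it had more reads than Krt5. Krt8 shares its windows mostly with the pseudogene Krt8-ps, in runs of up to 299 bases. Krt8-ps had 2, 1 and 0 reads in tdTomato-positive and 1, 0 and 0 in tdTomato-negative libraries, and how many Krt8 reads went to the summary row was not measured. Krt8 and Krt7 also overlap the antisense genes Gm36026 and Gm671, whose reads cannot be told apart without a stated strand setting.

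The simple-epithelium keratins were abundant in both fractions. The type II chain Krt8 (chromosome 15, 101996698 to 102004482, - strand) had 422, 171 and 569 CPM in the tdTomato-positive libraries of mice 1, 2 and 3, against 331, 137 and 261 CPM in the tdTomato-negative ones. Mouse 2 was lowest in both fractions, and the groups overlapped, yet within each mouse the tdTomato-positive library was higher, by 0.35, 0.32 and 1.12 on the log2 scale. Over all 3 mice the log2 fold change was 0.67 ± 0.494 (SE; adjusted p = 0.678 in edgeR). With the block it was 0.60 ± 0.163 (SE; adjusted p = 0.0560 in edgeR), which misses the threshold, and DESeq2 with the block called it (adjusted p = 0.0258), as it did 1.41% of genes as higher. Leaving out 1 library or 1 mouse moved the log2 fold change without a mouse term to between 0.29, without the tdTomato-positive library of mouse 3, and 1.03, without that of mouse 2. With the block it was 0.33 without mouse 3 (adjusted p = 0.682).

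Its type I partner Krt18 lies close by on chromosome 15 (102028180 to 102032027, + strand). It had 856, 265 and 662 CPM in the tdTomato-positive libraries of mice 1, 2 and 3, against 573, 201 and 370 CPM in the tdTomato-negative ones. Again mouse 2 was lowest in both fractions and the groups overlapped, while each tdTomato-positive library exceeded its mate, by 0.58, 0.40 and 0.84 on the log2 scale. The log2 fold change was 0.64 ± 0.531 (SE; adjusted p = 0.713 in edgeR) without a mouse term and 0.61 ± 0.137 (SE; adjusted p = 0.0192 in edgeR) with the block, which called it higher. In that blocked fit 1.36% of all genes tested were called higher. The blocked call was lost without mouse 1 (adjusted p = 0.0539) or mouse 3 (adjusted p = 0.493). Without a mouse term the log2 fold change was 0.29 without the tdTomato-positive library of mouse 1, and 1.06 without the tdTomato-negative one of mouse 1, the ends of its range over the libraries and mice left out.

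Krt19 (chromosome 11, 100140810 to 100148665, - strand) is a type I chain that lacks most of the tail domain. It had 315, 288 and 327 CPM in the tdTomato-positive libraries of mice 1, 2 and 3, against 225, 127 and 163 CPM in the tdTomato-negative ones. Every tdTomato-positive library was above every tdTomato-negative one, as for 8.29% of the genes tested, which had higher CPM in all tdTomato-positive libraries. The SD was 19.7 CPM over the tdTomato-positive and 49.5 CPM over the tdTomato-negative libraries (n = 3 each). Its log2 fold change of 0.85 ± 0.205 (SE), or 1.81-fold, did not pass without a mouse term (adjusted p = 0.122 in edgeR), and 0.0455% of all genes were called higher in that fit. With the block it was 0.89 ± 0.156 (SE; adjusted p = 0.00312 in edgeR) and called higher. DESeq2 without a mouse term also called it (adjusted p = 0.0204), as did edgeR with no filter (adjusted p = 0.00121), fits that called 1.4% and 1.47% of their genes, 0.329% and 0.594% as higher. The blocked call was lost without mouse 3 (adjusted p = 0.295), and over all 21 alternatives the log2 fold change was 0.67 to 1.10. The 9 club cell markers, genes of airway secretory cells, summed to 8750 to 21910 CPM in tdTomato-positive and 4897 to 8299 CPM in tdTomato-negative libraries, with none called without a mouse term and 7 higher with the block. The 8 alveolar type 1 markers summed to 778.9 to 968.2 CPM in tdTomato-positive and 381.7 to 502.1 CPM in tdTomato-negative libraries. That sum is mostly Cldn18, a claudin, which rose and averaged 661 ± 127 CPM in tdTomato-positive and 244 ± 62.9 CPM in tdTomato-negative libraries (SD, n = 3 each). The median log2 fold change of the 7 tested was -0.86, with 3 above 0. Ager, another of them, fell with the block (adjusted p = 0.0135 in edgeR, and 0.0575 without), and Pdpn had no read in any library. The part of these cells in the keratin differences was not tested.

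Krt7 (chromosome 15, 101411043 to 101430313, + strand), a type II chain of ducts and glands, had 88.8, 79.6 and 128 CPM in the tdTomato-positive libraries of mice 1, 2 and 3. The tdTomato-negative libraries had 102, 54.7 and 105 CPM. The groups overlapped and the mice differed in direction, with mouse 1 at -0.21 and mice 2 and 3 at 0.54 and 0.28 on the log2 scale. Its estimate on the log2 scale was 0.18 ± 0.268 (SE; adjusted p = 0.847 in edgeR) without and 0.20 ± 0.180 (SE; adjusted p = 0.629 in edgeR) with the block. Of the 4 simple-epithelium members, all tested, none was called without a mouse term, where Krt19 alone had an unadjusted edgeR p under the same 0.05, and Krt18 and Krt19 rose in the blocked fit.

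**Figure D2:**
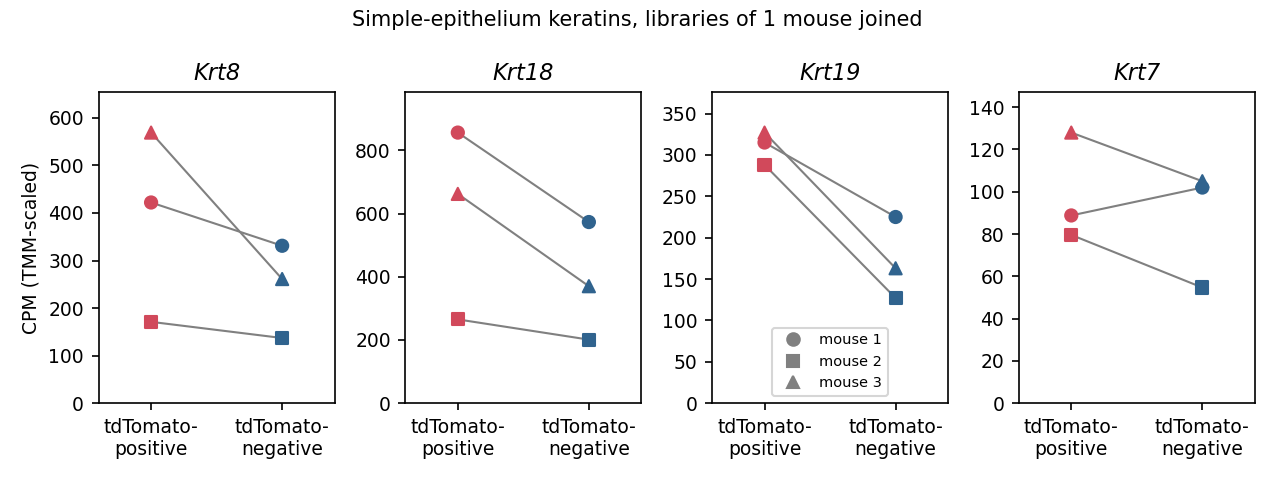
CPM of the 4 simple-epithelium keratins, tdTomato-positive at the left and tdTomato-negative at the right of each panel, with lines joining the 2 libraries of 1 mouse. Krt8, Krt18 and Krt19 are higher in the tdTomato-positive library of each of the 3 mice, and Krt7 in 2 of 3; mouse 2 is lowest for Krt8 and Krt18 in both fractions.

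Directions within mice were counted for both sets of members. Trp63, Krt5 and Krt15 were lower in the tdTomato-positive library of 3 of 3 mice, and Krt8, Krt18 and Krt19 were higher in 3 of 3. Of the genes tested, 18.8% were lower and 19.8% higher in 3 of 3 mice. Krt5 was not among the genes tested, and in mouse 3 it had 2 reads against 3. Trp63 and Krt15 passed the filter through their tdTomato-negative libraries alone, so their directions are descriptions. Krt14, Krt17 and Krt7 did not have 1 direction in all 3 mice. Trp63 was the 1 member called without a mouse term. The median over all genes tested was 0.029 on the log2 scale. Scaling by library size alone moved that median to 0.286; relative to it Krt8, Krt18, Krt19 and Krt7 were then at 0.60, 0.55, 0.80 and 0.12 and Krt15 at -1.13.

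**Figure D3:**
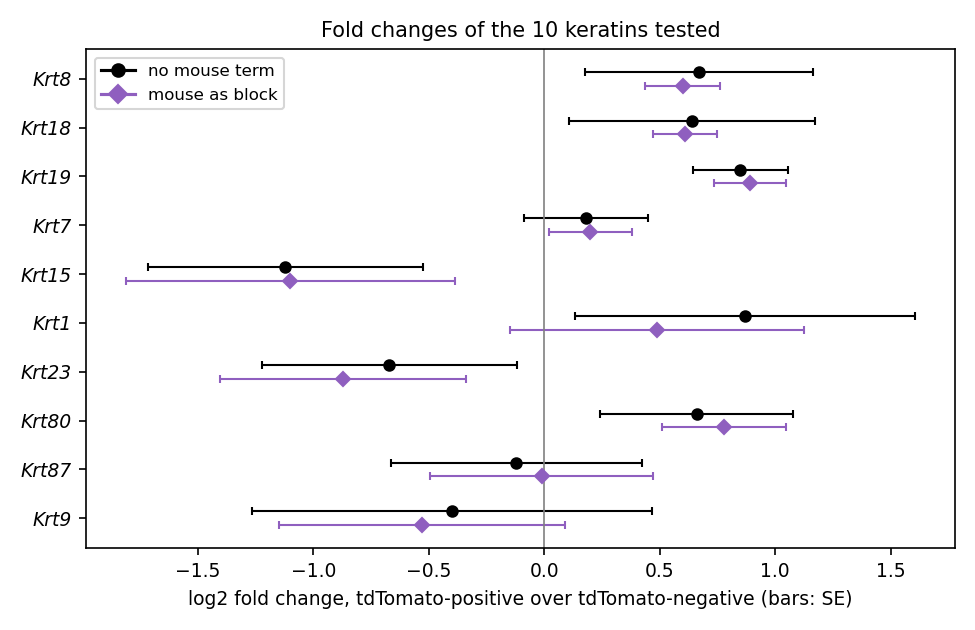
Log2 fold change of the 10 keratins that passed the filter, tdTomato-positive over tdTomato-negative, with SE bars, for the fit without a mouse term (circles) and with the mouse as a block (diamonds). The block leaves the values of Krt8, Krt18 and Krt19 near 0.6 to 0.9 and narrows their SE, from 0.531 to 0.137 for Krt18.

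Levels of different genes were compared per kilobase of merged exons. Krt18 came first, at 414 ± 210 CPM per kb in tdTomato-positive and 265 ± 130 CPM per kb in tdTomato-negative libraries (SD, n = 3 each). Krt8 followed at 198 ± 103 in tdTomato-positive and 124 ± 50.2 CPM per kb in tdTomato-negative libraries. Krt19 was next at 167 ± 10.8 in tdTomato-positive and 92.5 ± 26.7 CPM per kb in tdTomato-negative libraries. Krt8 overlapped both Krt18 and Krt19 within the SD, while Krt18 and Krt19 did not overlap each other in either fraction. That separation depended on the length used. With the longest annotated transcript Krt19 was at 197 ± 12.7 in tdTomato-positive and 109 ± 31.5 CPM per kb in tdTomato-negative libraries. It then overlapped Krt18 within the SD in both fractions. Krt7 was below all 3, at 14 ± 3.65 in tdTomato-positive and 12.4 ± 4.00 CPM per kb in tdTomato-negative libraries, beyond their spread. The basal members were lower still. Krt15 was at 0.700 ± 0.120 in tdTomato-positive and 1.53 ± 0.385 CPM per kb in tdTomato-negative libraries, where Trp63 averaged 0.982 ± 0.423 and Krt5 0.910 ± 0.619 CPM per kb, without a separation between these 3 (SD, n = 3 each).

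Within each library Krt8 was below Krt18 per kilobase. Their ratio was 0.362, 0.474 and 0.631 in the tdTomato-positive libraries of mice 1, 2 and 3, against 0.424, 0.500 and 0.518 for tdTomato-negative cells. The groups overlapped. Krt19 over Krt18 was 0.285, 0.842 and 0.382 in tdTomato-positive and 0.303, 0.489 and 0.342 in tdTomato-negative libraries. Mouse 2 was highest in both fractions, and the groups overlapped.

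**Figure D4:**
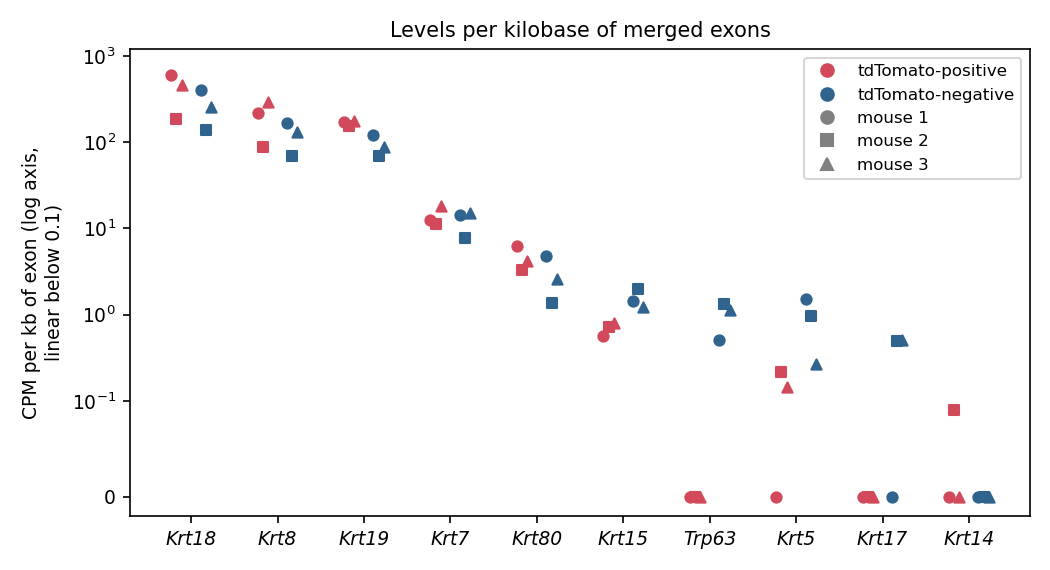
CPM per kilobase of merged exons in each library for the 9 genes and Krt80, on a log axis that is linear below 0.1. The order runs from Krt18, at 140 to 596, to the basal members, which are at 1.96 or below in every library.

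Across the 6 libraries, Krt8 and Krt18 varied together, with a Pearson correlation of log2(CPM + 1) of 0.943. It was 0.851 for Krt8 with Krt7, 0.681 for Krt8 with Krt19 and 0.585 for Krt7 with Krt19, and 0.900 and 0.856 for Krt80 with Krt18 and with Krt19, so high values were not particular to the Krt8 and Krt18 pair. The points share libraries and mice, and the values are descriptions. The bases before the starts of Krt8 and Krt18, partners in the filament, are shown beside those of Krt5, the basal type II chain, from RefSeq (GRCm38.p6), which had entries for 5 of the 9 genes. Capitals mark the p53 family half-site consensus, which p63 also reads. Each stretch runs 5′ to 3′ on the gene's strand and ends where the annotated gene begins, or just before it.
Krt5, chr15:101712906-101713155, - strand: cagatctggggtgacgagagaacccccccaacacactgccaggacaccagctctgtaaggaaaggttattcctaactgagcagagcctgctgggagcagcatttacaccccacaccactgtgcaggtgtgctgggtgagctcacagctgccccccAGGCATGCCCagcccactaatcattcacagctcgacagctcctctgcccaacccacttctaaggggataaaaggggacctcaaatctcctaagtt
Krt8, chr15:102004483-102004592, - strand: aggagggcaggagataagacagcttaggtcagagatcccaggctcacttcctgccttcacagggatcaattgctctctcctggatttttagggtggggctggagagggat
Krt18, chr15:102027966-102028179, + strand: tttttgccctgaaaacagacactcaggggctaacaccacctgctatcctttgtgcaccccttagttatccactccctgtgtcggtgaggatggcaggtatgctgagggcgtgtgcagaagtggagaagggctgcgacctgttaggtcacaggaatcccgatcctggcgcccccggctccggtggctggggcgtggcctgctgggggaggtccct
In the whole 250 bases before the RefSeq start, the half-site was found once for Krt5 and not for Krt7, Krt8, Krt14 or Krt18, and 7.13% of 32851 promoter windows held it on either strand. The windows of Krt7 and Krt14 lie wholly inside the annotated genes, with 0 bases before the GENCODE start. The bases before that start were thus not searched for these genes. The AP-1 motif TGANTCA, held by 6.75%, was in none of the 5 windows. The GC box GGGCGG, held by 32.7%, occurred 4 times in the Krt7 window and in none of the other 4. A match says that the letters are there and no more.

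By the same correlation over 6 libraries, among 11179 genes, those most like Trp63 were Dram2 (0.9975), Has3 (0.9945) and Rab27b (0.9933). Each value in this paragraph was picked as 1 of the highest of 11179, so it is high by choice and a description. Trp63 also had no read in the 3 tdTomato-positive libraries, so its values rest largely on the split between the groups. Rab27b had 2.70, 2.37 and 3.02 CPM in tdTomato-positive and 14.4, 20.7 and 20.9 CPM in tdTomato-negative libraries. Most like Krt8 were Slc25a25 (0.9901), Pdrg1 (0.9838) and Rtfdc1 (0.9826), and most like Krt19 were Cep170b (0.9974), Dkkl1 (0.9967) and Slc25a39 (0.9855).

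Of the other 47 keratin rows, 29 had a read and 5 passed the filter, none of them called by either fit. Krt80, a type II keratin, had the highest mean of these per kilobase in tdTomato-positive libraries, at 4.60 ± 1.53 CPM per kb. Krt87 was at 2.62 ± 0.95 and Krt23 at 2.49 ± 1.83 CPM per kb, and both overlapped Krt80 within the SD. In tdTomato-negative libraries Krt23 was at 3.96 ± 0.347 and Krt80 at 2.91 ± 1.75 CPM per kb (SD, n = 3 each). Krt80 was higher in 3 of 3 mice. It had 40.2, 21.2 and 26.8 CPM in tdTomato-positive and 30.7, 8.64 and 16.4 CPM in tdTomato-negative libraries of mice 1, 2 and 3. The groups overlapped (log2 fold change 0.66 ± 0.419, SE; adjusted p = 0.606 in edgeR, and 0.145 with the block). Krt1, Krt23, Krt87 and Krt9 had log2 fold changes of 0.87, -0.67, -0.12 and -0.40, with edgeR adjusted p of 0.697 or more.

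Of 15 other genes of basal cells listed, 9 were tested, 1 fell and 8 did not pass. The median log2 fold change was 0.21 against 0.029 over all genes, with 6 of the 9 above 0, as were 52.7% of all genes tested. The basal cell receptor Ngfr had 0, 1 and 0 reads in tdTomato-positive and 0, 4 and 1 in tdTomato-negative libraries. Aqp3, a water channel, had none in tdTomato-positive and 2, 1 and 5 reads in tdTomato-negative libraries. Both were picked with their values known and fell below the filter. Neither was called by edgeR with no filter (adjusted p = 0.674 for Ngfr and 0.379 for Aqp3). Dst, which encodes dystonin, a plakin that links keratins to hemidesmosomes in its epithelial form, fell. It had 90.5, 89.7 and 98.1 CPM in tdTomato-positive against 196, 195 and 199 CPM in tdTomato-negative libraries, a log2 fold change of -1.08 ± 0.152 (SE; adjusted p = 0.00693 in edgeR). Without a mouse term, that call was lost with library size scaling (-0.83, adjusted p = 0.0648), and without the tdTomato-negative library of mouse 1 or 3 or any 1 mouse (adjusted p = 0.0524 to 0.151). With the block Dst was called lower (adjusted p = 0.000314 in edgeR, and 4.56e-08 in DESeq2). Of the blocked edgeR fits that left out a mouse, 2 called it.

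The hemidesmosome integrin chain Itgb4 had 143, 191 and 186 CPM in tdTomato-positive and 101, 76.1 and 103 CPM in tdTomato-negative libraries. The groups did not overlap, with tdTomato-positive higher, as for 8.29% of the genes tested. It missed the threshold without a mouse term (edgeR log2 fold change 0.90, adjusted p = 0.0662) and rose with the block (adjusted p = 0.00684), by DESeq2 (adjusted p = 0.00693) and with no filter (adjusted p = 0.0013). Lamb3, a chain of the laminin that lines basement membranes, was at 1.01, 0.158 and 0.159 CPM in tdTomato-positive and 3.49, 6.92 and 5.46 CPM in tdTomato-negative libraries (adjusted p = 0.0758 in edgeR, and 0.0223 with the block; DESeq2 and edgeR with no filter also called it lower, with adjusted p = 0.00693 and 0.00308). It passed the filter through its tdTomato-negative libraries alone, and 2 of its tdTomato-positive values lie under the floor, so the size of its difference is uncertain. Jag2, a Notch ligand, had a log2 fold change of 0.72 (adjusted p = 0.392 in edgeR).

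Of 13 genes known as targets of p63, 12 were tested and all 12 had a log2 fold change above 0, as did 52.7% of all genes tested; their median was 0.52 and none was called without a mouse term. With the block, which called 1.36% of all genes tested higher, 2 rose, Itgb4 and Cdkn1a, which encodes the cell cycle inhibitor p21. Cdkn1a had 315, 91.9 and 173 CPM in tdTomato-positive and 166, 50.7 and 89.9 CPM in tdTomato-negative libraries (edgeR log2 fold change 0.91, adjusted p = 0.00180 with the block, and 0.628 without). Itga3, an integrin chain, had 122, 200 and 135 CPM in tdTomato-positive and 99.9, 109 and 99.8 CPM in tdTomato-negative libraries. The groups did not overlap, as for the 8.29% of genes tested that were higher, and Itga3 was not called (edgeR log2 fold change 0.57, adjusted p = 0.340).

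Among 12 regulators of the p53 family and of epithelial identity, all tested, 1 fell. Ehf, an ETS factor, had 31.6 CPM in each tdTomato-positive library and 58.2, 63.6 and 81.3 CPM in the tdTomato-negative ones (log2 fold change -1.10 ± 0.205, SE; adjusted p = 0.0379 in edgeR). Without a mouse term, its call was lost in all 9 fits that left out 1 library or 1 mouse and with library size scaling (adjusted p = 0.0585 to 0.496). With the block Ehf was called lower (adjusted p = 0.00457 in edgeR, and 0.00082 in DESeq2). Of the blocked edgeR fits that left out a mouse, 2 called it. Elf3, another epithelial ETS factor, rose with the block (log2 fold change 1.07; adjusted p = 0.0230 in edgeR, and 0.363 without) and, without it, where no filter was used (adjusted p = 0.02). Grhl3, a Grainyhead-like factor, had a log2 fold change of 1.07 (adjusted p = 0.506 in edgeR, and 0.0291 with no filter). The p53 relative Trp73, which acts in multiciliated cells, averaged 102 ± 9.28 CPM in tdTomato-positive and 79.1 ± 17.9 CPM in tdTomato-negative libraries (SD, n = 3 each; adjusted p = 0.557 in edgeR).

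Of 13 genes tested that anchor or bind keratin filaments, Dst fell and 12 were not called, with a median of 0.25. Jup, which encodes plakoglobin of desmosomes, rose with the block (log2 fold change 0.71; adjusted p = 0.0413 in edgeR, and 0.330 without). Plec, the linker plectin, had a log2 fold change of 0.63 (adjusted p = 0.313 in edgeR) and the desmosomal Pkp3 one of 0.98 (adjusted p = 0.490 in edgeR). Of 15 other intermediate filament genes, 5 were tested and none was called. Vim, the vimentin of mesenchymal and leukocyte cells, was at 16.4, 27.7 and 7.94 CPM in tdTomato-positive and 57.0, 79.1 and 6.82 CPM in tdTomato-negative libraries (adjusted p = 0.618 in edgeR).

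Genes of the Krt8-high transitional state described in injured mouse alveoli formed a list that holds the 4 simple-epithelium keratins. Over 13 tested the median was 0.64, with 12 above 0, as were 52.7% of all genes tested. None was called without a mouse term. With the block 5 rose, Krt18, Krt19, Cdkn1a, Cldn4 and Hbegf, in a fit that called 1.36% of all genes tested higher. Krt18 and Krt19 are members, so the list is not independent of them. Cldn4, a claudin, was at 17.9, 3.32 and 22.7 CPM in tdTomato-positive and 7.76, 0.192 and 7.60 CPM in tdTomato-negative libraries (adjusted p = 0.0386 in edgeR with the block, and 0.638 without). Hbegf, an EGF receptor ligand, was at 166, 72.3 and 230 CPM in tdTomato-positive and 129, 38.2 and 130 CPM in tdTomato-negative libraries (adjusted p = 0.0267 in edgeR with the block, and 0.739 without). Mouse 2 was lowest for both in each fraction, as for Krt8 and Krt18. Sfn, the stratifin of keratinocytes, had a log2 fold change of 0.58 (adjusted p = 0.457 in edgeR).

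The sort and the remaining cell types were checked on further markers. The 7 mesothelial markers summed to 102.7 to 148.8 CPM in tdTomato-positive and 40.17 to 204.7 CPM in tdTomato-negative libraries, with 5 tested and none called. Epcam, the gene of the sorting marker, averaged 101 ± 32.6 CPM in tdTomato-positive and 82.0 ± 22.0 CPM in tdTomato-negative libraries (SD, n = 3 each; adjusted p = 0.720 in edgeR).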

How the data were processed

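Each deposited file gives the raw counts of reads in each gene for 1 library. Per the submitters' processing notes, the tools were STAR 2.4.2a, cutadapt 1.7.1, DESeq2, HTSeq and FastQC, with the builds GRCm38.p4 and mm10; the strand setting of HTSeq is not given in the sources used here. RNA was amplified before library preparation, per the labels' protocols. The 5 HTSeq summary rows were left out; reads aligned to several places were 8.26% to 12.0% of counted rows in each library, and reads in no annotated gene 41.0% to 49.4%.

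CPM with TMM factors, log2 fold changes, SE and two-sided p-values came from edgeR 4.0.16 (quasi-likelihood test, R 4.3.3), with filterByExpr at a count minimum of 10, over all 13175 genes kept, with Benjamini-Hochberg adjustment. Alternatives used DESeq2 1.42.0, limma-voom 3.58.1, other scalings and filters, the replicate block and fewer libraries. Because the labels give the same mouse for both fractions, the samples are paired; libraries from the same mouse deviated together from the means of their groups, with correlations of 0.281, 0.257 and 0.354 across genes. Positions and exon lengths come from GENCODE M21 (GRCm38), which held all 9 genes by symbol.

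The members and lists were chosen with earlier results of these data known. Named are all members, the other keratins that passed the filter, up to 4 genes of each list by smallest p (1 is not reported here), the genes that check the sort, and the 3 genes most like Trp63, Krt8 and Krt19. Ngfr, Aqp3, Ager, Krt16, Krt6a, Krt6b, Krt8-ps, Krt4, Krt13, Krt20, Pkp1 and Pdpn fall outside this rule and were picked once their values were known.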

Additional observations from a re-analysis of the deposited data

How the results depend on the processing

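The replicate block raised the count of calls to 415 genes, against 82 without it, and 2 simple-epithelium members, Krt18 and Krt19, against 0. DESeq2 called 247 genes and 1 simple-epithelium member, DESeq2 with the block 450 and 3 (Krt8, Krt18 and Krt19), and edgeR with no filter 413 and 1. A count minimum of 30 removed Trp63, leaving 0 basal members called against 1. Over fits that left out 1 library or 1 mouse, with or without the block, 22 to 633 genes, 0 to 1 basal and 0 to 3 simple-epithelium members were called. The blocked fits that left out a mouse were chosen after seeing the data. The fits without a mouse term gave 22 to 113 genes. The block called 633 genes without mouse 1, 380 without mouse 2 and 59, with no member, without mouse 3. Of 124 values of members under these alternatives, 2 turned direction, both of Krt7, which ranged from -0.07 (without the tdTomato-negative library of mouse 2) and -0.05 (without the tdTomato-positive library of mouse 3) to 0.36 without and 0.39 with the block over the fits with libraries left out. Among the other keratins, none called, Krt87 turned to 0.09 with library size only, 0.03 with limma-voom and 0.03 with DESeq2 and the block. With libraries left out Krt87 ranged from -0.52 to 0.27 (up to 0.25 with the block), Krt1 from -0.36 to 1.4 and Krt9 from -1.13 to 0.13. The cause was not tested. With the longest annotated transcript in place of merged exons, the tdTomato-positive level per kilobase was 24.1 for Krt7 and 197 for Krt19, and the tdTomato-negative level 21.3 for Krt7 and 1.54 for Trp63. The basal keratins are limited by depth, with 18 reads or more in all per tdTomato-negative and 12 or fewer per tdTomato-positive library.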

Other observations

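The keratins Krt4 (type II) and Krt13 (type I), a pair of stratified, non-cornified epithelia such as the oesophagus, were chosen here after their values were seen. Both had most of their reads in the 2 libraries of mouse 2. Krt4 had 0, 72 and 0 reads in the tdTomato-positive libraries of mice 1, 2 and 3 and 3, 42 and 0 reads in the tdTomato-negative ones. Krt13 had 1, 26 and 2 reads in tdTomato-positive and 6, 24 and 3 reads in tdTomato-negative libraries. Pkp1, a desmosomal plakophilin of stratified epithelia, was chosen in the same way and had 1, 14 and 0 reads in tdTomato-positive and 3, 18 and 3 reads in tdTomato-negative libraries. Mouse 2, where these 3 genes were highest in both fractions, was also the mouse with the lowest Krt8 and Krt18. All 3 genes fell below the filter on low counts, and the difference between mice was not tested.

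Krt20, chosen in the same way, is a type I keratin known from intestinal epithelium and urothelium. It had 9, 12 and 1 reads in tdTomato-positive and 0, 0 and 2 reads in tdTomato-negative libraries of mice 1, 2 and 3. It was higher in 2 of 3 mice by count and was also below the filter (edgeR with no filter, adjusted p = 0.468).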
